A study of Mus musculus with 6 samples.

Results

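The 10 genes described here encode isotypes of tubulin, the protein that polymerises into microtubules. They are 5 alpha tubulin genes (Tuba1a, Tuba1b, Tuba1c, Tuba4a and Tuba8) and 5 beta tubulin genes (Tubb2a, Tubb2b, Tubb4b, Tubb5 and Tubb6), taken by symbol from the 24489 gene entries of the deposited table. All 10 passed the filter on low counts, which kept 13819 genes in all. Polyadenylated RNA came from a liver lobe of untreated mouse pups at postnatal day 10. Every library had the same C3H/C57bl6J background, and the genotypes were Jag1+/+ and Jag1Ndr/Ndr, with 3 libraries each. Jag1 encodes a ligand of Notch receptors, and the Ndr (Nodder) allele carries a missense change in it, which a table of reads per gene cannot show. Mice homozygous for it serve to model Alagille syndrome, a disease with too few bile ducts in the liver and retained bile, but bile flow was not measured in these files.

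Alpha and beta tubulin join into a dimer, and dimers add to the ends of microtubules, the tracks along which vesicles are carried and the fibres of the mitotic spindle. In hepatocytes, microtubules carry secretory vesicles and bring transporters to the membrane that faces the bile canaliculus. The isotypes of a family fold alike and differ most in the acidic tail at the carboxyl end, which lies on the surface of the microtubule and carries most of its modifications. Tubulin transcripts are also subject to autoregulation: when free dimers are in excess, the nascent amino terminus is recognised by TTC5 and the messenger is degraded on the ribosome.

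Total reads over gene entries ranged from 17548954 to 40499166 in Jag1+/+ libraries and from 12992592 to 59653111 in Jag1Ndr/Ndr libraries. Levels are given as CPM, reads scaled to a common library total. The limit that 0 reads leave was 0.231 CPM in the shallowest library and 0.0503 CPM in the deepest (3 reads, counting error only). It was taken over the plain library totals, before the adjustment that the CPM carry. The totals were adjusted by TMM, a factor per library that brings most genes to a common level. By Xist and Y-linked reads, Jag1+/+ replicate 1 and Jag1Ndr/Ndr replicates 2 and 3 were female and the other 3 libraries male. The labels do not say that each library is a separate animal, so p-values measure the spread between these libraries, which may in part be technical. The tissue label held, since the summed CPM of 10 hepatocyte markers came to 109210 to 230670 CPM in every library. Of the 13819 genes tested, 653 were higher in Jag1Ndr/Ndr (4.73%) and 401 lower (2.90%) by the quasi-likelihood test of edgeR (Benjamini-Hochberg adjusted p under 0.05). With library totals in place of TMM the split was 606 higher and 210 lower, and the median log2 fold change of all genes moved from 0.00 to 0.13.

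The coding ends of 6 isotypes are shown because they hold the tail in which the proteins differ. They do not show which transcripts could be told apart by reads. Each line gives the last 20 codons and the stop codon of the GENCODE M21 transcript paired with the RefSeq entry (GRCm38), written 5′ to 3′ on the coding strand, with the last codon before the stop in capitals.
Tuba4a (chr1:75214972-75221261, minus strand): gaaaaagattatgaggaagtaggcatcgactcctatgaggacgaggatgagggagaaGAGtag
Tuba8 (chr6:121210734-121226098, plus strand): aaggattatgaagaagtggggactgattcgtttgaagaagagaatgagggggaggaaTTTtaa
Tubb2a (chr13:34074278-34078008, minus strand): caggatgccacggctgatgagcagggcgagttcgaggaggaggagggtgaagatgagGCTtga
Tubb2b (chr13:34127008-34130354, minus strand): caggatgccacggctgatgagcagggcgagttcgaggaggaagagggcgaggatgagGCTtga
Tubb4b (chr2:25222158-25224702, minus strand): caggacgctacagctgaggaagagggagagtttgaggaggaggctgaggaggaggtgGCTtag
Tubb5 (chr17:35833920-35838301, minus strand): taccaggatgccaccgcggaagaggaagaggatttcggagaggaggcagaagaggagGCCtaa
The sequences of the other 4 are not shown. Many alpha tubulins end in a tyrosine that is removed and put back in the detyrosination cycle. Tuba4a ends in a glutamate codon (GAG) and so encodes a tail without that tyrosine, and Tuba8 ends in a phenylalanine codon (TTT). Of the last 20 codons, 8 in Tuba4a and in Tuba8 and 10 in Tubb4b encoded glutamate, the residue to which chains of further glutamates are attached.

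The coding starts differed in meaning between an alpha and a beta gene, but among the beta genes only in bases. The first 12 bases read atgagggaatgc in Tuba8 and atgagggaaatc in Tubb5. The starts of this alpha and this beta gene differ in the meaning of the last codon. Among the 5 beta genes the first 12 bases came to 5 distinct sequences with 1 translation of their 4 codons. These codons encode the stretch that the autoregulation machinery reads, which is thus the same in the 5 beta genes.

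Over the whole coding sequence, Tuba1a and Tuba1b were 98.3% identical, Tuba1a and Tuba1c 97.1% and Tubb2a and Tubb2b 96.5%. Tuba8 stood furthest from the others, with 80.8% identity to Tuba4a and 78.8% to Tuba1a. Of all stretches of 50 bases in the transcript, 72.9% in Tuba1a, 73.8% in Tuba1b and 61% in Tuba1c also occurred in the transcript of another gene. The same share was 49.6% in Tubb2a, 39.3% in Tubb2b and 50.9% in Tubb4b, but 1.11% in Tuba4a, 0.181% in Tuba8, 0.115% in Tubb5 and 0% in Tubb6. The sources used here do not give how reads that fit several genes were counted. The levels of the 3 Tuba1 genes, of Tubb2a and Tubb2b and of Tubb4b, which shares stretches with its pseudogenes, are therefore uncertain. Tuba4a, Tuba8, Tubb5 and Tubb6 shared few or no such stretches, but how their reads were assigned was not seen. Tuba4a also overlaps other genes in the genome, as given below. For comparison, 56.7% of the stretches of the gamma actin gene Actg1 recurred elsewhere, and it stood at 2.84 to 4.97 CPM, against 615 to 1022 CPM for beta actin Actb, with 14.2%. The part of sharing in those levels was not tested.

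In Jag1Ndr/Ndr livers Tuba8 and Tubb6 transcripts rose, and the other 8 isotypes did not pass the test. Tuba8 rose 7.32-fold and Tubb6 1.77-fold. Tuba8 went from a minor alpha isotype to a visible part of the alpha pool, while Tuba4a and Tubb5, the leading transcripts of each family, kept the first places. Of the 10 genes 2 changed, both rising, while 7.63% of all genes tested changed, 4.73% rising and 2.90% falling. In 4 of the 10 (Tuba8, Tubb2b, Tubb5 and Tubb6) all Jag1Ndr/Ndr libraries lay above all Jag1+/+ libraries in CPM, which 14.8% of all genes tested did. The median log2 fold change of the 10 was 0.39, beside 0.00 for all genes, and 9 of the 10 estimates lay above 0, beside 50.5% of all genes (6 of the 10 with quality weights per library, and all 10 with library totals alone). At an unadjusted p under 0.05 in edgeR, 4 of the 10 passed, beside 22.5% of all genes tested. These counts describe the 10 genes and set no property of the group apart.

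**Figure D1:**
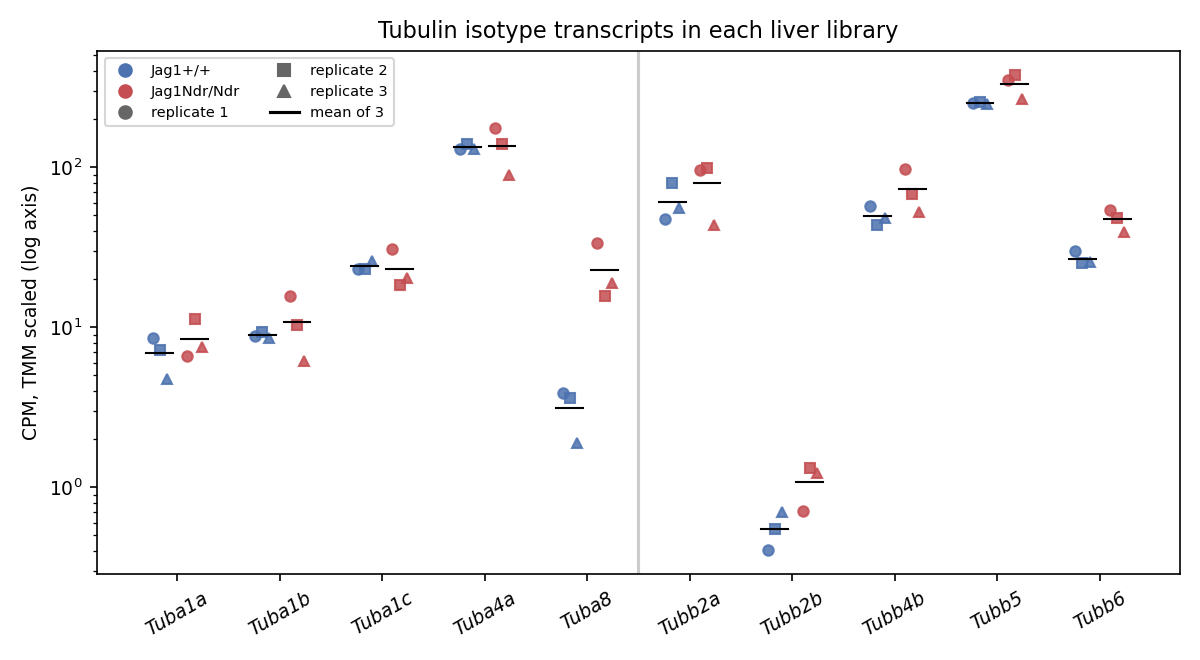
TMM-scaled CPM on a log axis for each tubulin gene in the 3 Jag1+/+ (blue) and 3 Jag1Ndr/Ndr (red) libraries, alpha genes on the left and beta genes on the right, with the marker shape giving the replicate and a line at the mean of 3. Tuba8 sits between 1.89 and 3.88 CPM in Jag1+/+ and between 15.6 and 33.8 CPM in Jag1Ndr/Ndr, and Tubb6 also shows no overlap between the genotypes.

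Tuba8 is an alpha isotype best known from muscle, heart and testis. It stood at 3.88, 3.6 and 1.89 CPM in Jag1+/+ replicates 1, 2 and 3 and at 33.8, 15.6 and 18.8 CPM in Jag1Ndr/Ndr replicates 1, 2 and 3. The lowest Jag1Ndr/Ndr library was thus well above the highest Jag1+/+ library, and Jag1Ndr/Ndr replicate 1 was the highest of all. Behind these values were 67, 111 and 73 reads in Jag1+/+ and 381, 1110 and 353 in Jag1Ndr/Ndr. The log2 fold change was 2.87 ± 0.38 (SE, n = 3 per genotype; 95% interval 2.00 to 3.74), with an edgeR adjusted p of 0.00565. By size of the fold change Tuba8 ranked 81 among the 653 genes that were higher. It passed in all 17 alternative analyses, with a log2 fold change of 2.47 to 3.10 and an adjusted p of at most 0.0286. Within females (1 Jag1+/+ and 2 Jag1Ndr/Ndr libraries) the log2 ratio of mean CPM was 2.15, and within males (2 and 1) it was 3.62, given as values without a test.

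Since Tuba8 is known from muscle, skeletal muscle markers were read as well, a list of 10 genes chosen after the values of Tuba8 were seen. Their summed level was 0.637 to 1.85 CPM in Jag1+/+ and 1.39 to 3.1 CPM in Jag1Ndr/Ndr libraries, below the level of Tuba8 in each library. The sums overlapped between the genotypes, and the highest was in Jag1Ndr/Ndr replicate 1, as was that of Tuba8. Myh4 had no reads in any library, 7 further markers had none in at least 1 library, and 1 of the 10 passed the filter on low counts, without passing the test. Markers of heart and testis were not read, and the part of muscle in the rise of Tuba8 was not tested.

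Tuba4a, the alpha isotype whose gene encodes no final tyrosine, was the leading alpha transcript in every library. It stood at 130.3, 140.4 and 131 CPM in Jag1+/+ and at 177, 139 and 90 CPM in Jag1Ndr/Ndr replicates 1, 2 and 3. The Jag1Ndr/Ndr libraries lay on both sides of the Jag1+/+ ones, with replicate 1 high and replicate 3 low. The log2 fold change of 0.01 ± 0.24 did not pass (edgeR adjusted p = 0.984), and its 95% interval ran from -0.53 to 0.56. Tuba4a overlaps Stk16 and A630095N17Rik, and because the library kit does not mark the strand, reads in the overlap cannot be told apart.

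Tuba1b and Tuba1c are alpha isotypes found in most cell types, and Tuba1a is the main alpha isotype of developing neurons. Tuba1c stood at 23.2, 23.1 and 26 CPM in Jag1+/+ and at 31, 18.3 and 20.4 CPM in Jag1Ndr/Ndr (log2 fold change -0.06 ± 0.21, edgeR adjusted p = 0.907, 95% interval -0.55 to 0.43). Tuba1b stood at 8.86, 9.32 and 8.58 CPM against 15.8, 10.4 and 6.13 CPM (0.26 ± 0.31, edgeR adjusted p = 0.691, interval -0.45 to 0.97). Its 3 Jag1+/+ libraries lay close together, and the Jag1Ndr/Ndr libraries spread to both sides of them. Tuba1a stood at 8.63, 7.21 and 4.75 CPM against 6.65, 11.2 and 7.57 CPM (0.32 ± 0.29, edgeR adjusted p = 0.584, interval -0.34 to 0.99). In all 3 genes the genotypes overlapped. The sign of the Tuba1c estimate turned with library totals in place of TMM (0.02) and in the deposited RPKM, and the intervals of all 3 hold both directions. Tuba1b also overlaps Gm41396.

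Tubb6 is a beta isotype of low abundance in most tissues that is found in connective tissue, regenerating muscle and some immune cells. It stood at 29.8, 25.1 and 25.5 CPM in Jag1+/+ and at 54.4, 48 and 39.4 CPM in Jag1Ndr/Ndr replicates 1, 2 and 3. All Jag1Ndr/Ndr libraries were above all Jag1+/+ libraries. The log2 fold change was 0.82 ± 0.17 (95% interval 0.44 to 1.20), with an edgeR adjusted p of 0.0234, and by its size Tubb6 ranked 592 among the 653 higher genes. The call did not hold without Jag1+/+ replicate 1, 2 or 3 (edgeR adjusted p = 0.0671, 0.12 and 0.123) or with sex as a covariate (0.0534). Nor did it hold in limma on log2 of the deposited RPKM plus 1 or plus 0.1 (limma adjusted p = 0.147 and 0.191). These RPKM are multiplied by the TMM factor, by which the CPM are divided. The log2 fold changes ran from 0.70 to 1.05 over all 17 alternatives. Within females the log2 ratio was 0.55 and within males 1.11.

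Tubb5 is the common beta isotype of most cells. It stood at 253, 255 and 247 CPM in Jag1+/+ and at 352, 380 and 266 CPM in Jag1Ndr/Ndr. The genotypes did not overlap, with Jag1Ndr/Ndr replicate 3 close above the Jag1+/+ libraries, but the log2 fold change of 0.40 ± 0.18 did not pass (edgeR adjusted p = 0.242, 95% interval -0.02 to 0.83). Tubb4b, a widespread beta isotype that is also used in cilia, stood at 56.9, 43.8 and 48.5 CPM against 97.9, 68.2 and 52.9 CPM. Its replicate 3 in Jag1Ndr/Ndr lay below the highest Jag1+/+ library. The log2 fold change was 0.55 ± 0.23 (edgeR adjusted p = 0.204, interval 0.02 to 1.08), and the log2 ratio was 0.09 within females and 1.09 within males. Tubb4b overlaps Fam166a.

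Tubb2a and Tubb2b are beta isotypes known best from neurons. Tubb2a stood at 47.5, 79.5 and 55.9 CPM in Jag1+/+ and at 95.7, 99.2 and 43.4 CPM in Jag1Ndr/Ndr. The lowest of the 6 values was in a Jag1Ndr/Ndr library, as were both of the highest (log2 fold change 0.38 ± 0.32, edgeR adjusted p = 0.56, interval -0.36 to 1.12). Tubb2b was the rarest of the 10, with 7, 17 and 27 reads in Jag1+/+ and 8, 94 and 23 in Jag1Ndr/Ndr. This came to 0.405, 0.552 and 0.698 CPM against 0.709, 1.32 and 1.23 CPM, without overlap but with replicate 1 of Jag1Ndr/Ndr next to the highest Jag1+/+ value (0.99 ± 0.38, edgeR adjusted p = 0.163, interval 0.13 to 1.85).

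**Figure D2:**
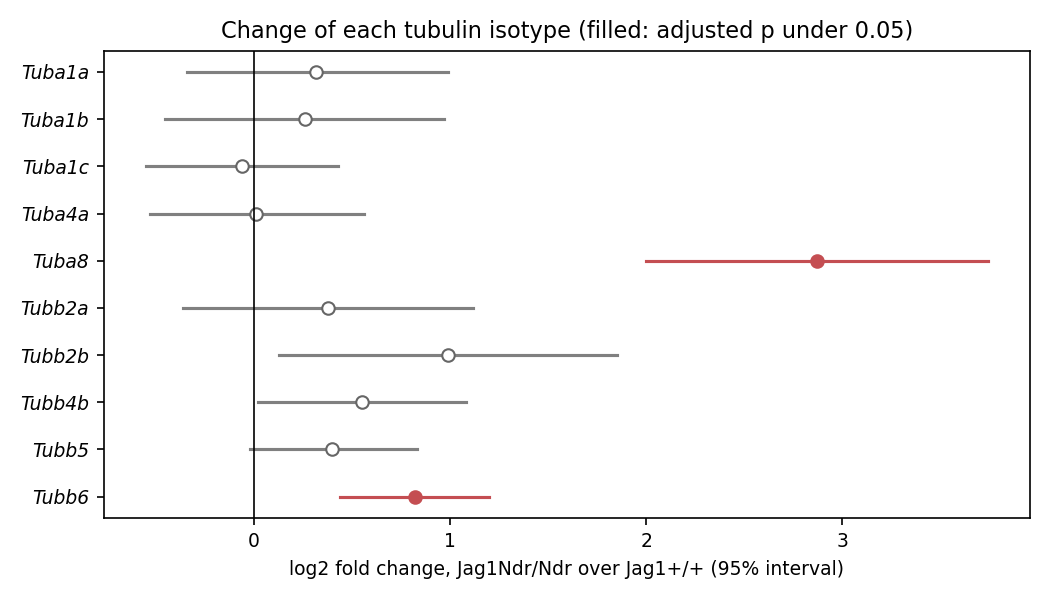
Log2 fold change of each tubulin gene, Jag1Ndr/Ndr over Jag1+/+ (n = 3 per genotype), from edgeR's quasi-likelihood fit over all genes, with 95% intervals as lines and filled red points where the adjusted p was under 0.05. Tuba8 (2.87) and Tubb6 (0.82) are filled, and the intervals of Tuba1a, Tuba1b, Tuba1c, Tuba4a, Tubb2a and Tubb5 cross 0.

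Across the genes, the highest value of each of the 10 was in Jag1Ndr/Ndr replicate 1 (6 genes) or Jag1Ndr/Ndr replicate 2 (4 genes). This count describes the 10 genes only and was not set beside all genes tested. The summed CPM of the 10 genes was 562, 587 and 549.9 in Jag1+/+ and 865, 791 and 546 in Jag1Ndr/Ndr replicates 1, 2 and 3. Replicate 3 of Jag1Ndr/Ndr was thus below every Jag1+/+ library, and the genotypes overlapped. The beta genes summed to 387, 404 and 377 CPM against 601, 597 and 403 CPM, and the alpha genes to 175, 184 and 172 CPM against 264, 194 and 143 CPM. Both sums overlapped between the genotypes, the beta sum by the narrow margin of Jag1Ndr/Ndr replicate 3 below Jag1+/+ replicate 2.

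Levels of different genes were compared as CPM per kilobase of the transcript length behind the deposited RPKM. In Jag1+/+ livers Tubb5 (97.6 ± 1.59, mean ± SD, n = 3) and Tuba4a (96.9 ± 4.05) came first and did not differ beyond their spread. Tubb2a (39 ± 10.6) and Tubb4b (34.6 ± 4.6) followed and overlapped as well. Below them came Tubb6 (15.8), Tuba1c (12.5), Tuba1b (5.86), Tuba1a (4.43), Tuba8 (2.24) and Tubb2b (0.295), each apart from the next in all libraries. In Jag1Ndr/Ndr livers Tubb5 (129 ± 23) and Tuba4a (97.9 ± 31.6) were again first with overlapping values, followed by Tubb2a (50.8 ± 20) and Tubb4b (50.8 ± 15.9). Tubb6 (27.8 ± 4.45) was next, and Tuba8 (16.3 ± 6.96) stood in the sixth place, where it had been in the ninth. Its values there overlapped those of Tubb6 above it and of Tuba1c (12.1 ± 3.55) below it. The length behind the RPKM was 1394 bases for Tuba8 and 1383 for Tuba4a, while the paired GENCODE transcripts hold 2263 and 2840 bases, so the place of these genes depends on which length is right.

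Shares of a family within a library do not depend on the scaling between libraries. Tuba8 made up 2.31%, 2.04% and 1.14% of the summed RPKM of the 5 alpha genes in Jag1+/+ and 13.2%, 8.27% and 13.8% in Jag1Ndr/Ndr. Tuba4a made up 78.2%, 80% and 80.1% against 70%, 74.3% and 66.4%. Neither gene's shares overlapped between the genotypes, and the mean share of Tuba8 rose by 9.92 percentage points while that of Tuba4a was lower by 9.25 points, at an unpassed change of its own CPM. The ratio of Tuba8 to Tuba4a RPKM went from 0.0295, 0.0254 and 0.0142 to 0.189, 0.111 and 0.207. With GENCODE lengths, a setting chosen after seeing the data, the mean share of Tuba8 was 1.97% in Jag1+/+ and 12.5% in Jag1Ndr/Ndr. That of Tuba4a was then 67.8% and 59%.

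Among the beta genes, Tubb6 made up 9.43%, 7.56% and 8.31% of the summed RPKM in Jag1+/+ and 10.7%, 9.84% and 12.1% in Jag1Ndr/Ndr, again without overlap. The other 4 beta genes and the 3 Tuba1 genes overlapped between the genotypes in their shares. Tubb5 held 52.2% ± 1.31 of the beta sum in Jag1+/+ and 50.3% ± 4.15 in Jag1Ndr/Ndr (SD, n = 3 each). The ratio of the beta to the alpha RPKM sum was 1.54, 1.54 and 1.53 in Jag1+/+ and 1.63, 2.13 and 1.95 in Jag1Ndr/Ndr. Its size depends on the length taken for Tuba4a (1383 bases behind the RPKM, 2840 in GENCODE), and it was not read with GENCODE lengths. The shares and ratios are descriptions without a test.

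**Figure D3:**
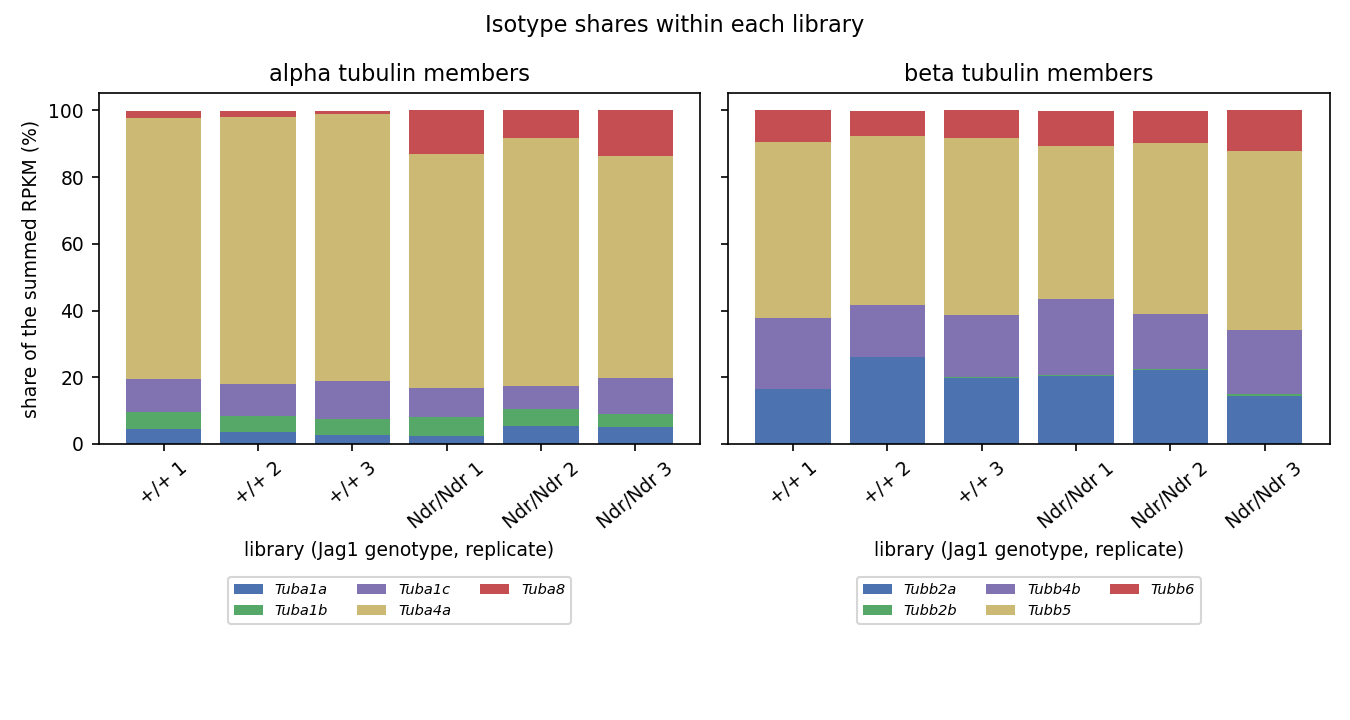
Stacked bars give the share of each gene in the summed RPKM of the 5 alpha (left) or 5 beta (right) tubulin genes in each library, in percent. The Tuba8 segment grows from 1.14 to 2.31% in the Jag1+/+ libraries to 8.27 to 13.8% in the Jag1Ndr/Ndr libraries, while the beta bars keep their make-up apart from a somewhat larger Tubb6 segment.

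Of the 10 remaining tubulin genes in the list, 6 passed the filter, and none of these passed the test, beside 7.63% of all genes tested. Tubb1, the beta isotype of megakaryocytes and platelets, stood at 7.82, 9.67 and 2.84 CPM in Jag1+/+ and 7.27, 17.4 and 6.35 CPM in Jag1Ndr/Ndr (edgeR adjusted p = 0.527), and the genotypes overlapped. For Tubb4a, a beta isotype of the nervous system, the log2 estimate was -0.64 ± 0.40 (edgeR adjusted p = 0.407). For Tubg1, the gamma tubulin of the centrosome, it was 0.03 ± 0.16 (edgeR adjusted p = 0.942). Tubb3, the neuronal beta isotype, did not pass the filter, with 1 read in each Jag1+/+ library and 4, 57 and 6 reads in Jag1Ndr/Ndr replicates 1, 2 and 3. The ratio of Tubb3 rates, with reads pooled over library totals and without TMM, was 22.4, with an exact Poisson interval of 7.34 to 111 for counting error only. Jag1Ndr/Ndr replicate 2 holds 57 of the 67 reads, and without it the ratio was 9.89 (2.55 to 55.9). The ratio of mean TMM-scaled CPM was 12.7. Tubb3 entered the edgeR test in 3 of the alternatives. The adjusted p was 0.00995 with no filter, 0.0211 without Jag1Ndr/Ndr replicate 1 and 0.0571 without Jag1+/+ replicate 1. Where a library was left out, Tubb3 passed the filter only through Jag1Ndr/Ndr libraries, where it is high. Those adjusted p-values therefore carry no weight for a rise. Tuba3a, Tuba3b and Tubal3 had at most 3 reads in a genotype.

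Of the machinery that folds tubulin, no gene passed the test. None of 7 folding cofactors (median log2 fold change 0.07) and none of 14 genes of the CCT chaperonin and its partner prefoldin (0.07) passed the edgeR test, and 0 genes of either list had an unadjusted p under 0.05, also by DESeq2. The same held for the 5 genes tested of tubulin messenger autoregulation (median 0.03, 0 at an unadjusted p under 0.05). In edgeR 22.5% of all genes tested had such a p, and 7.63% passed the test. In the CCT and prefoldin list 2 genes were higher and 1 lower in Jag1Ndr/Ndr without overlap, which 14.8% and 14.2% of all genes tested were. A p that misses the threshold does not show that these genes did not differ. Among stathmins, which bind free dimers, and severing enzymes, none of 7 passed (median -0.03), and the log2 estimate of Stmn1 was 0.36 ± 0.30 (edgeR adjusted p = 0.549).

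Of 17 tubulin modifying enzymes tested, Agbl3, a deglutamylase, fell, and none rose, beside 2.90% falling and 4.73% rising among all genes tested. It stood at 4.29, 4.48 and 4.99 CPM in Jag1+/+ and at 2.48, 1.49 and 2.35 CPM in Jag1Ndr/Ndr, without overlap (log2 fold change -1.16 ± 0.28, edgeR adjusted p = 0.0418). Its edgeR call ended when Jag1+/+ replicate 1, 2 or 3 (adjusted p = 0.108, 0.138 and 0.168) or Jag1Ndr/Ndr replicate 2 or 3 (0.0711 and 0.0685) was left out, and with library totals alone (0.0601), sex as a covariate (0.0999) or the deposited RPKM (0.244 and 0.243 with limma).

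Among 19 microtubule-associated and plus-end proteins tested, 2 rose and 1 fell, beside 4.73% rising and 2.90% falling among all genes tested. Mapt, which encodes tau, stood at 2.03, 2.27 and 2.71 CPM in Jag1+/+ and at 0.798, 0.505 and 0.587 CPM in Jag1Ndr/Ndr (log2 fold change -1.96 ± 0.32, edgeR adjusted p = 0.0116). Map7d1, which encodes a protein of the family that recruits kinesin-1, rose by 0.57 ± 0.13 on the log2 scale (edgeR adjusted p = 0.0351), and the end-binding protein gene Mapre3 by 0.73 ± 0.17 (edgeR adjusted p = 0.0418). Without Jag1+/+ replicates 2 and 3 the edgeR adjusted p of Mapt was 0.0547 and 0.0619. That of Map7d1 was 0.139, 0.17 and 0.159 when Jag1+/+ replicate 1, 2 or 3 was left out, and 0.0677 when Jag1Ndr/Ndr replicate 3 was. That of Mapre3 was 0.105, 0.186 and 0.177 in the same Jag1+/+ settings, and 0.0568 and 0.11 when Jag1Ndr/Ndr replicate 1 or 3 was left out. With sex as a covariate Map7d1 (0.0771) and Mapre3 (0.0905) did not pass in edgeR, none of the 3 passed in the deposited RPKM, and Map7d1 did not pass with library totals alone (0.055).

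None of 16 motor genes, 20 primary cilium genes and 20 mitosis genes passed the edgeR test, beside 7.63% of all genes tested. Of them 2, 5 and 1 had an unadjusted p under 0.05 in edgeR, as did 22.5% of all genes tested. DESeq2 called 1 motor gene and 4 cilium genes, 2 in each direction, and no mitosis gene, beside 1890 of 13819 genes in all. The cilium gene Ift57 was close to the threshold (log2 fold change 1.36 ± 0.35, edgeR adjusted p = 0.0514). It passed by DESeq2 (0.00461) and limma voom with quality weights (0.0362). In edgeR it passed without Jag1Ndr/Ndr replicate 2 (adjusted p = 0.00763), with no filter (0.0396), with the replicate block (0.0363) and with library totals alone (0.0404). It did not pass in edgeR with sex as a covariate (0.0974) or when any other library was left out (0.0957 to 0.182). The median log2 fold change of the mitosis list was 0.27, and Mki67, the proliferation marker Ki-67, had 0.49 ± 0.24 (edgeR adjusted p = 0.28).

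Of 20 actin and other cytoskeletal genes 7 rose and none fell, beside 4.73% and 2.90% of all genes tested, and their median log2 fold change was 0.48. The 7 were Tagln2, Krt8, Krt18, Tpm1, Vim, Vil1 and Lmna, of which Vil1 and Lmna are named because they complete the count. The actin-binding protein gene Tagln2 stood at 65.1, 53.3 and 48.1 CPM in Jag1+/+ and 169.6, 125 and 170.2 CPM in Jag1Ndr/Ndr (log2 fold change 1.48 ± 0.19, edgeR adjusted p = 0.00548). The hepatocyte and bile duct keratin genes Krt8 and Krt18 rose by 1.32 ± 0.24 and 1.46 ± 0.27 on the log2 scale (edgeR adjusted p = 0.017 for each). Without Jag1+/+ replicates 1, 2 or 3 only Tagln2 of the 7 passed in edgeR, with an adjusted p of 0.0759, 0.0859 and 0.089 for Krt8 and of 0.0787, 0.0794 and 0.0901 for Krt18. With sex as a covariate 4 of the 20 passed, and in limma on the deposited RPKM 3 or 4. Actb had 0.45 ± 0.20 (edgeR adjusted p = 0.232).

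**Figure D4:**
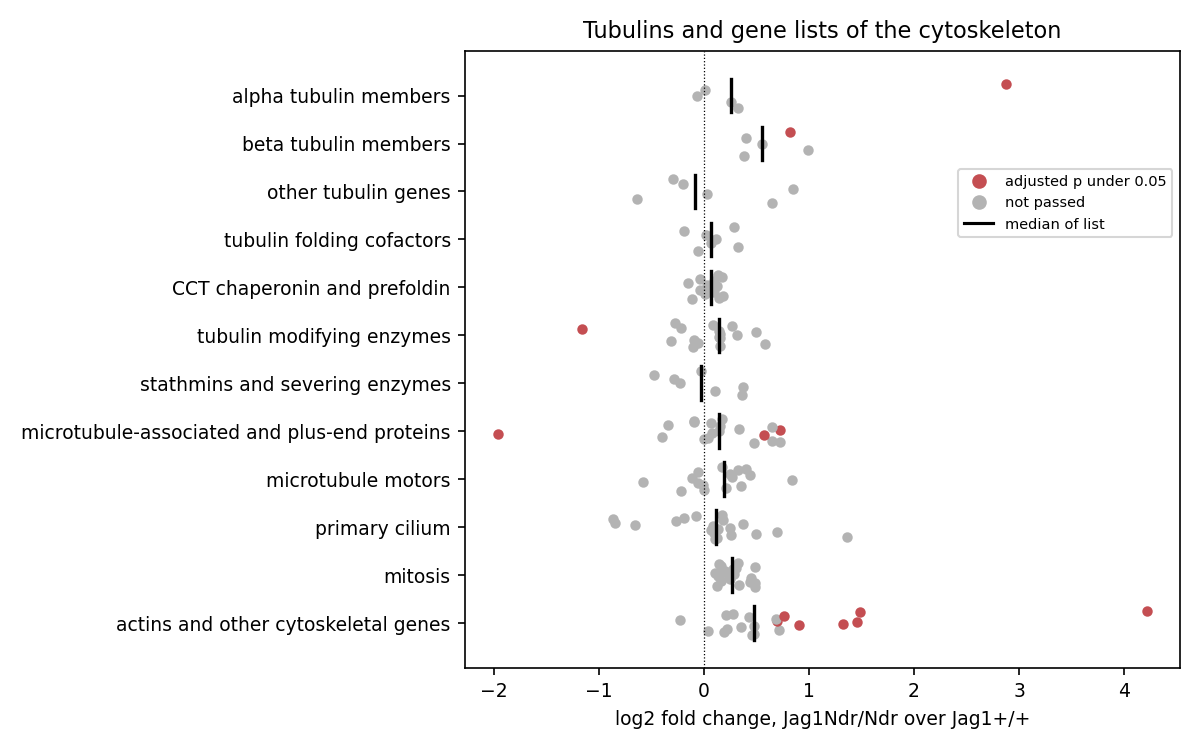
Log2 fold changes, Jag1Ndr/Ndr over Jag1+/+, of the genes tested in each list, with a black bar at the list's median and red points where edgeR's adjusted p was under 0.05. The folding lists cluster around 0 (medians 0.07), the only red points among the tubulins are Tuba8 and Tubb6, and the actin and other cytoskeletal list holds 7 red points to the right of 0.

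Markers of several cell types also differed between the genotypes. Over all genes tested, 4.73% were higher and 2.90% lower by the edgeR test, to be read beside the counts of markers. In bulk tissue fewer cells of a type and less RNA per cell cannot be told apart. The summed level of 10 hepatocyte markers was 223138 to 230670 CPM in Jag1+/+ and 109210 to 195706 CPM in Jag1Ndr/Ndr, with 1 of 10 lower by the edgeR test. Macrophage markers summed to 894 to 1543 CPM against 1847 to 3185 CPM, with 2 of 10 higher. Neutrophil markers summed to 625 to 753 CPM against 1078 to 2361 CPM, with 7 of 10 higher. None of the markers in these 3 lists was at 0 in any library.

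Platelet and megakaryocyte markers, read because Tubb1 is known from these cells, summed to 47.8 to 106 CPM in Jag1+/+ and 100.3 to 195 CPM in Jag1Ndr/Ndr, with none of 10 passing. Mesothelial markers summed to 7.34 to 33.1 CPM against 34.4 to 41.8 CPM (none of 8 tested passed), with Krt14 at 0 in at least 1 library. Neuronal and Schwann cell markers, read because Tubb2a, Tubb2b and Tubb3 are known from neurons, summed to 11.7 to 12.1 CPM against 14.4 to 14.9 CPM. Of these 5 were tested and 1 was higher, while Snap25 had no reads and Nefl, Nefm, Elavl4 and Sox10 were at 0 in at least 1 library. Tubb2a alone stood at 43.4 to 99.2 CPM over the libraries, and a link of these tubulins to such cells was not tested.

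Cholangiocyte markers overlapped in their sum (95.6 to 139 CPM against 64.5 to 172 CPM), with 2 of 8 tested higher, Cldn4 and Cldn7, and Sctr at 0 in at least 1 library. Stellate cell and fibroblast markers (1039 to 1217 CPM against 823 to 1286 CPM, 1 of 10 lower) and endothelial markers (664 to 749.8 CPM against 659.7 to 698 CPM, none of 10) overlapped as well. Erythroid markers summed to 305 to 444 CPM against 376 to 592 CPM, with 2 of 7 tested higher and Hba-a1 without reads. B lineage markers summed to 69.2 to 104 CPM against 16.3 to 68.5 CPM, with 1 of 10 lower and Vpreb1 at 0 in at least 1 library. The part of these cell types in the rise of Tuba8 and Tubb6 was not tested.

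Genes whose log2 CPM followed the mean of the 10 tubulin genes most closely over the 6 libraries, among 8272 genes with a mean of at least 10 CPM, were Sart1 and Micall2 (Pearson r 0.996 for both), Sf3a2 (0.993), Qars (0.991) and Ctsz (0.991). The mean they followed was 4.30, 4.33 and 4.17 in Jag1+/+ and 5.13, 4.95 and 4.55 in Jag1Ndr/Ndr, on the log2 CPM scale. The 6 points share the genotype difference and the libraries' composition, so r is a description only. Of the 5 genes, Ctsz, a lysosomal cathepsin gene, passed the edgeR test (log2 fold change 0.85 ± 0.21, adjusted p = 0.0454). In all 5 the genotypes did not overlap, which the choice largely fixed, since the mean they followed does not overlap either. Of all genes tested, 14.8% were higher in Jag1Ndr/Ndr without overlap.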

How the data were processed

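Liver RNA libraries (TruSeq RNA v2, which does not mark the strand) were grouped by genotype from the labels, 3 per genotype. The authors deposited whole read counts per RefSeq gene entry, not normalized, and RPKM in 1 table, per the file headers. STAR and the mm10 build are named in the submitters' processing notes, with no version, and the counter and its treatment of reads that fit several genes are not given in the sources used here. The deposited RPKM carry the TMM factor per library of the file header as a multiplier: within 5%, 98% of values over 11559 genes with at least 20 reads fitted reads per length and library total times that factor. The CPM used here are instead divided by the TMM factor, so these scalings run in opposite directions. In limma on the RPKM the median log2 fold change of all genes was 0.18 and 0.22 (pseudocounts of 1 and 0.1). RPKM were therefore used for transcript lengths and shares within a library, and in limma only as an alternative.

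Left out were 93 spike-in and eGFP entries (5 reads). Counts were filtered with filterByExpr, scaled by TMM and tested between genotypes, two-sided, with edgeR's quasi-likelihood test over 13819 genes and Benjamini-Hochberg adjustment at 0.05 (edgeR 4.0.16, R 4.3.3). Standard errors were derived from the F statistic, and intervals use its t distribution. The common biological coefficient of variation was 0.243. The scripts were tested on simulated counts that gave every gene the common variation. There edgeR called 39 of 98 planted 2-fold changes and 99 of 100 planted 4-fold changes, so a change of 2-fold often did not pass.

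The 10 genes and the lists (283 genes, 277 matched by symbol and 3 by an older symbol) were chosen with earlier results of these data known. Named genes are the 10, the first 4 of each list by adjusted p, a fixed set (Tubb1, Tubb3, Tubb4a, Tubg1, Stmn1, Map4, Ttc5, Actb, Actg1, Vim) and the 5 of most similar pattern; not all are described. Vil1, Lmna and the muscle list were chosen after values were seen.

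Sequences are from GENCODE M21 transcripts of GRCm38, and gene positions from RefSeq on that build; some sequences are not reported here. Alternatives were other scalings and filters, DESeq2 1.42.0, limma 3.58.1 on log2 RPKM with pseudocounts of 1 and 0.1, voom with quality weights, a replicate block, sex as a covariate and leaving out each library.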

Additional observations from a re-analysis of the deposited data

How the results depend on the processing

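Tuba8 stayed higher, past the threshold, in all 17 alternatives, and Tubb6 in 11 of 17. The number of tubulin genes past the threshold was 1 in limma on the deposited RPKM with either pseudocount and 1 with sex as a covariate, 1 to 2 when a library was left out and 2 in each other setting. Over all genes, 1890 passed by DESeq2, 1594 with voom quality weights, 596 with the sex covariate, 211 and 418 in the RPKM with pseudocounts of 1 and 0.1, and 282 to 1211 when a library was left out (342, 282 and 319 without Jag1+/+ replicates 1, 2 and 3), against 1054. In these settings the direction of unpassed genes turned: Tuba1b was -0.12 with quality weights and -0.10 to 0.55 when a library was left out. Tuba1c was 0.02 with library totals, 0.14 and 0.15 in the RPKM, 0.04 with the sex covariate and -0.33 to 0.10 without a library. Tuba4a was -0.29 with quality weights, -0.04 with the replicate block and -0.23 to 0.24 without a library. Tubb2a was -0.13 with quality weights, and Tubg1 -0.03 with quality weights and -0.11 to 0.14 without a library (all log2). The number of genes whose shares did not overlap was 3, and 3 to 5 when a library was left out (5 without Jag1Ndr/Ndr replicate 1 or 3). The RPKM settings scale the libraries in the opposite direction to the CPM, so they differ from edgeR in scaling as well as test. The causes were not tested. Tubb2b was not tested with the filter of 1 CPM in 3 libraries, so that setting gives no value for it.

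The labels give both genotypes the replicate numbers 1 to 3. Deviations from the genotype means correlated at 0.09, 0.17 and 0.19 between samples of the same number, each sample best with its own number, a hint from the data. The sample descriptions also carry a code that same-numbered samples of both genotypes share, whose meaning is not given in the labels, so the samples were not treated as paired. With the replicate block 1430 genes passed, among them 2 of the 10 tubulin genes. Tubb2b and Tubb3 had under 10 reads in 2 and 5 libraries, which limits the precision of their values.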
